A study of Mus musculus with 4 samples.

Results

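The Serpina cluster genes are a family of related serine protease inhibitors and hormone carriers, most of them secreted by hepatocytes, and the members described here are Serpina1a, Serpina1b, Serpina1d, Serpina1e, Serpina3k, Serpina3m, Serpina3n, Serpina4-ps1, Serpina6 and Serpina9. These 10 genes were chosen by name, with earlier results of the same livers in view, so no p-value is given for any of them and counts of calls among them are description only. They stand beside 17406 genes or other features tested on the same arrays. Probes matched 9 of the 10 genes, through RefSeq accessions, and no probe matched Serpina1b, which is not analysed here. All 9 measured genes passed the filter on dim probes, and their 13 probes were well above background on each of the 4 arrays. All 10 genes lie on chromosome 12 in the RefSeq gene table of assembly GRCm38.p6.

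The arrays held 2 liver samples of Cyp3a-/- mice, which lack the Cyp3a gene cluster, cytochrome P450 genes whose enzymes oxidise drugs and steroids, and 2 of wild type mice. The work was done as 2 independent experiments on different animals, no treatment is named, and strain, sex, age and the extent of the deletion are not given in the sources used here. Total RNA (0.1 μg) from each liver was labelled with Cy3 and hybridised to 1 Agilent array per liver. The comparison asks how the liver transcriptome differs without the cluster.

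Cyp3a11, a main liver gene of the deleted cluster, was at least 7204-fold lower in Cyp3a-/- livers by its brighter probe. By its other probe it was at least 2191-fold lower, and both probes failed the background criterion in both Cyp3a-/- livers. The probes of Cyp3a13 were 69.1-fold and 26.5-fold lower there but stayed well above background. Of 9 hepatocyte markers with a probe, 9 were well above background on all 4 arrays. Between 54.4% and 56.4% of probes per array were well above background, 0 were saturated, and processed intensity had a 75th percentile of 308 to 352. The Cyp3a-/- arrays lay on slides 2 and 3 and both wild type arrays on slide 1, so slide and genotype cannot be told apart. Over all features the Cyp3a-/- livers differed from each other by a median absolute log2 signal of 0.25, and the wild type livers by 0.20. In whole liver, fewer cells of a type and less RNA per cell cannot be told apart.

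A serpin traps its target protease by offering a flexible loop as bait, which the protease cuts, after which both proteins stay locked together. Serpina1 proteins (alpha-1-antitrypsins) restrain neutrophil elastase in blood and lung, Serpina3 proteins (the contrapsin and antichymotrypsin group) restrain trypsin-like and chymotrypsin-like proteases, and Serpina6 has lost this activity and carries glucocorticoids. Mice carry several Serpina1 and Serpina3 copies in place of the single human genes. Values below are relative signals, the processed intensity divided by the 75th percentile of its array, and log2 values are log2 of that ratio. Relative signals of different probes cannot be compared with each other as amounts of RNA.

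The genes fell into 3 kinds of pattern. The alpha-1-antitrypsins, Serpina3k, Serpina3n and the glucocorticoid carrier Serpina6 lay at like levels in both genotypes. Serpina3m overlapped between genotypes, with Cyp3a-/- 1 the highest liver, and Serpina9 and Serpina4-ps1 were lower in both Cyp3a-/- livers. With limma and Benjamini-Hochberg adjustment over all features, 0 of the 9 measured genes were past an adjusted p of 0.05, against 0.276% of all features, and 2 had an unadjusted p under 0.05, against 10% of all features. Log2 fold changes (Cyp3a-/- minus wild type) were above 0 for 7 of them, against 51.4% of all features, and below 0 for 2, with a median of 0.12, where the median of all features was 0.01. The genotypes did not overlap with Cyp3a-/- below for 2 genes, against 20.2% of all features, and with Cyp3a-/- above for 1, against 22.5% (42.8% in either direction). The difference was at least 2-fold in either direction for 2 of the 9 genes, against 3.68% of all features, and both were lower, against 1.64%. Since this contrast was known when the genes were chosen, nothing is read from these counts.

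**Figure D1:**
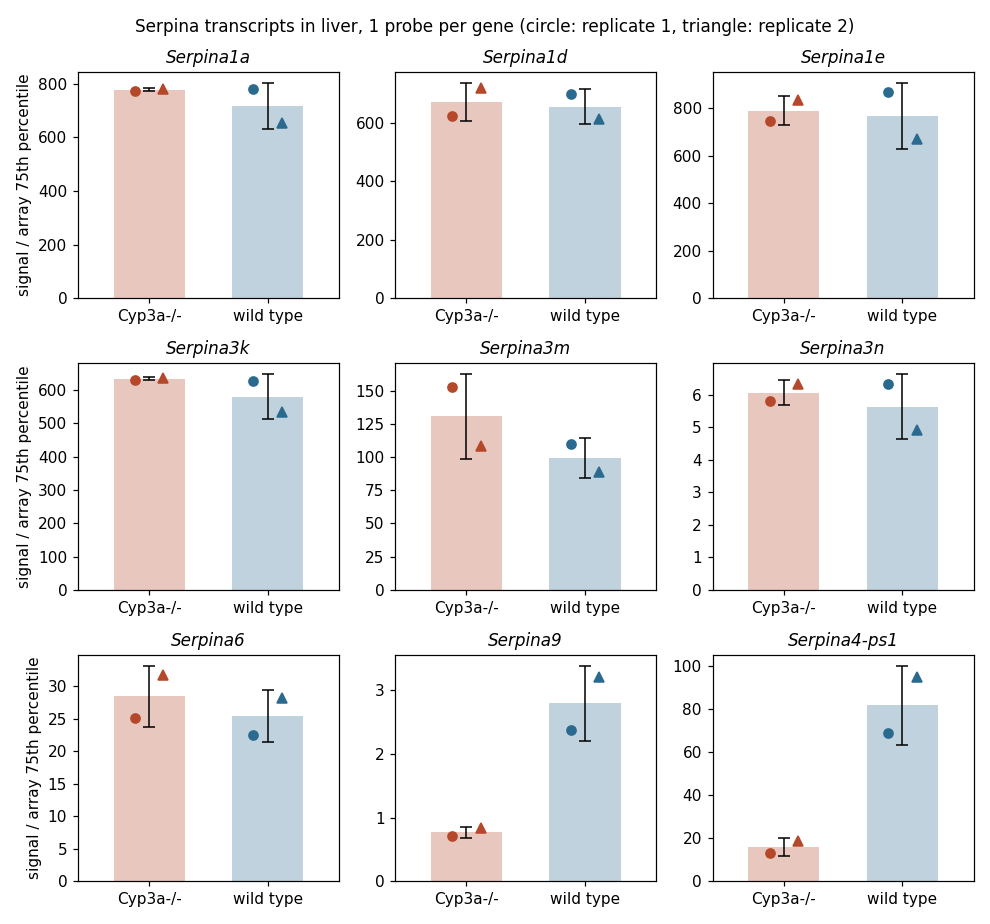
Relative signal (processed intensity over the 75th percentile of its array, linear axis from 0 in each panel) of the 9 measured Serpina genes, 1 probe per gene. Bars are means, error bars SD of 2 livers, circles replicate 1 and triangles replicate 2, with Cyp3a-/- livers left of wild type livers. Serpina9 and Serpina4-ps1 lie lower in both Cyp3a-/- livers than in either wild type liver, at mean relative signals of 0.769 and 16.0 in Cyp3a-/- livers, against 2.80 and 81.6 in wild type livers.

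Serpina4-ps1 is annotated as a transcribed pseudogene, the remnant of a mouse counterpart of the kallikrein inhibitor gene SERPINA4 of humans. Its relative signal was 13.1 and 18.8 in Cyp3a-/- livers 1 and 2, against 68.6 and 94.6 in wild type livers 1 and 2. The higher Cyp3a-/- liver thus lay well under the lower wild type liver. On the log2 scale it averaged 3.97 ± 0.37 in Cyp3a-/- livers and 6.33 ± 0.33 in wild type livers (SD, n = 2 each), a difference of -2.36, or 5.13-fold lower. Within a genotype, Cyp3a-/- 1 minus Cyp3a-/- 2 was -0.52 and wild type 1 minus wild type 2 was -0.46 on the log2 scale. Leaving out each liver in turn gave differences between -2.62 and -2.10. The gene was chosen with this contrast known, so these values describe it and are not a test.

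Serpina9, also named centerin, is known from germinal centre B cells, where it was described in humans. Its relative signal was 0.706 and 0.832 in Cyp3a-/- livers 1 and 2, against 2.38 and 3.21 in wild type livers 1 and 2. The 2 genotypes did not overlap for this gene. The log2 mean was -0.38 ± 0.17 in Cyp3a-/- livers and 1.47 ± 0.31 in wild type livers (SD, n = 2 each), a difference of -1.85, or 3.61-fold lower. With normexp background correction, whose offset shrinks differences of dim probes, the difference was -1.59. Serpina9 and Serpina4-ps1 each rest on 1 probe and 1 spot per array. On the chromosome only Serpina12 stands between them among the genes measured here, and its relative signal was 0.0841 and 0.100 in Cyp3a-/- livers, against 0.101 and 0.0667 in wild type livers, with overlap.

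The summed signal of B cell markers was, like Serpina9, lower in both Cyp3a-/- livers. Of 10 listed markers 9 had a probe, 4 were well above background on all 4 arrays, and 2, the B cell factor gene Pax5 among them, on none. Their summed relative signal was 1.05 and 0.909 in Cyp3a-/- livers, against 1.44 and 1.16 in wild type livers, and the median log2 fold change of the 6 tested was -0.77, with 0 called by limma. Their part in the Serpina9 difference was not tested.

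Markers of red cell precursors had a summed relative signal of 46.6 and 75.1 in Cyp3a-/- livers 1 and 2, against 91.7 and 107 in wild type livers 1 and 2. Of 7 listed, 6 had a probe, 4 were well above background on all 4 arrays, and 2, Epb42 among them, on none. The globin genes Hba-a1 and Hbb-bt made up most of the sum and were lower in both Cyp3a-/- livers. Alas2, of haem synthesis, had 13.9 and 21.5 in Cyp3a-/- livers, against 15.3 and 19.3 in wild type livers, with overlap. The median log2 fold change of the 4 tested was -0.55, with 0 called. Macrophage markers (8 of 8 well above background on all 4 arrays) summed to 46.7 and 51.5 in Cyp3a-/- livers, against 57.4 and 59.1 in wild type livers, with 0 of 8 called. Of these, Vsig4 lay above in both Cyp3a-/- livers (0.16, log2), and Adgre1, Cd68 and Timd4 overlapped. Stellate cell markers summed to 59.7 and 69.1 in Cyp3a-/- livers, against 78.2 and 70.2 in wild type livers. The hepatocyte, sinusoidal endothelium, cholangiocyte, T and NK cell, neutrophil and exocrine pancreas sums overlapped. The adipose sum, with 4 of 5 markers well above background on no array, was higher in both Cyp3a-/- livers. The part of any of these lists in the Serpina4-ps1 and Serpina9 differences was not tested.

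Genes whose log2 signal over the 4 arrays ran much like that of Serpina4-ps1 included Rrm2, a subunit gene of ribonucleotide reductase. Likeness was the Euclidean distance of values centred on each gene's mean, 0.44 for Rrm2 and 0.55 for Serpina9, over only 4 arrays. Rrm2 had relative signals of 0.217 and 0.343 in Cyp3a-/- livers, against 0.899 and 1.21 in wild type livers (adjusted p = 0.133, limma). Cenph, a kinetochore protein gene, also came out near, but it was not well above background in Cyp3a-/- livers, so its distance has no exact value. It was at least 1.5-fold lower there (adjusted p = 0.098, limma). Neither passed the threshold, and each was picked here for its likeness.

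The alpha-1-antitrypsin genes differed little between any 2 livers. Serpina1a had relative signals of 773 and 781 in Cyp3a-/- livers, against 778 and 655 in wild type livers. Serpina1d had 624 and 718 in Cyp3a-/- livers, against 699 and 613 in wild type livers. Serpina1e had 746 and 833 in Cyp3a-/- livers, against 866 and 669 in wild type livers. For all 3 genes wild type 2 was the lowest of the 4 livers, and the genotypes overlapped. The log2 differences were 0.12 for Serpina1a, 0.03 for Serpina1d and 0.05 for Serpina1e, each smaller than the SD between wild type livers of 0.18, 0.13 and 0.26. Each gene had a further probe, and these differed by 0.03, 0.05 and 0.08 on the log2 scale, again with overlap. The sign for all 3 turned negative without wild type 2 (Serpina1a -0.00, Serpina1d -0.06, Serpina1e -0.14), and for Serpina1d and Serpina1e also without Cyp3a-/- 2 or with quantile normalization.

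Serpina1a, Serpina1d and Serpina1e are near-identical copies, the probe sequences were not used here, and a probe may bind transcripts of several of them, so the values are uncertain as those of single genes. Their median spot brightness reached between 14.9% and 31.7% of the scanner's saturation value, and no spot was marked as saturated.

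Promoters of this group are shown because the copies share both their sequence and a near-equal signal in the 4 livers. RefSeq promoters of build GRCm38.p6 were found for 5 of the 10 genes. Below are the 250 bases before the annotated start of Serpina1a (chr12:103863620-103863869 on the minus strand) and Serpina1e (chr12:103956898-103957147 on the minus strand), 5′ to 3′ along the gene. Capitals mark GTTAAT, letters that the windows of Serpina1a to Serpina1e all held.
Serpina1a: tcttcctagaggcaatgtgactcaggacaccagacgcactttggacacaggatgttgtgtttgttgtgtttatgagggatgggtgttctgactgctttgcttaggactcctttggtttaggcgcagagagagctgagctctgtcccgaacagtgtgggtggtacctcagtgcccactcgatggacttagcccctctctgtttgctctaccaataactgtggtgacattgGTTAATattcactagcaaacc
Serpina1e: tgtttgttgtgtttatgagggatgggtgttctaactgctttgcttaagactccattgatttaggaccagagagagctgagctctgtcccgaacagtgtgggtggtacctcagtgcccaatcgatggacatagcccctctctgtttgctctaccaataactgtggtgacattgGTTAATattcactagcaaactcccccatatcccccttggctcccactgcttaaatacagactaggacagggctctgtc
In alignment these windows shared 184 of 193 aligned bases (95.3%). The GTTAAT letters, searched on both strands, begin 21 bases before the start in Serpina1a and 78 before it in Serpina1e. The 5 copies Serpina1a to Serpina1e all held the match, against 6.43% of 32851 windows of this length. The window of Serpina1f did not hold it, and those of Serpina3c and Serpina7 did. TTGCNNAA, a form bound by C/EBP factors, was found in 3 of the 5, Serpina1b, Serpina1d and Serpina1e, against 9.56% of all windows. The 5 windows are near copies of each other (92.1% to 98% of aligned bases). Their matches are thus not independent, and no enrichment is read from these shares. A match of letters is not a shown binding site.

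Among 18 tested liver transcription regulators, 0 rose and 0 fell by limma, the median log2 fold change was 0.06, and 2 had an unadjusted p under 0.05, against 10% of all features. Those 2 were Onecut1, a hepatocyte differentiation factor, at -1.79 ± 0.32 (SE, adjusted p = 0.198), and Cebpb, a factor of the acute phase, at 0.71 ± 0.20 (SE, adjusted p = 0.360). Bcl6, a repressor, stood at 0.69 ± 0.57 (SE, adjusted p = 0.716).

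Serpina6 is the plasma carrier of corticosterone. Its relative signal was 25.1 and 31.8 in Cyp3a-/- livers, against 22.5 and 28.2 in wild type livers. Replicate 2 was the higher in both genotypes and the ranges overlapped. The log2 mean was 4.82 ± 0.24 in Cyp3a-/- livers and 4.65 ± 0.23 in wild type livers (SD, n = 2 each), and the difference of 0.17 was below either SD. Its other probe read 5.14 and 6.01 in Cyp3a-/- livers, against 4.62 and 5.92 in wild type livers, a log2 difference of 0.09 with overlap. Of 18 glucocorticoid response genes tested, 0 rose and 0 fell by limma, where 0.276% of all features were called, with a median of 0.19. Cyp3a-/- lay above without overlap for 7 of the 18, against 22.5% of all features. An unadjusted p under 0.05 was found for 3, against 10% of all features: Lpin1, Errfi1, a feedback inhibitor gene of the EGF receptor, at 0.75 ± 0.19 (log2, SE, adjusted p = 0.318), and Zbtb16, a zinc finger factor gene, at -0.47 ± 0.18 (log2, SE, adjusted p = 0.485). The largest differences were those of Lpin1, a phosphatidate phosphatase gene, at 1.14 ± 0.45 (adjusted p = 0.498), Cdkn1a, a cell cycle inhibitor gene, at -1.06 ± 0.53 (adjusted p = 0.582), and Dusp1, a MAP kinase phosphatase gene, at -0.95 ± 0.59 (log2, SE, adjusted p = 0.634).

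In the Serpina3 group, Serpina3k and Serpina3n lay at like levels in both genotypes, while Serpina3m was highest in Cyp3a-/- 1. Between the wild type livers (replicate 1 minus 2) Serpina3m was not further apart than Serpina3n, at 0.31 and 0.36 on the log2 scale. Serpina3k, the contrapsin of mouse plasma, had relative signals of 631 and 636 in Cyp3a-/- livers, against 627 and 532 in wild type livers. Both Cyp3a-/- livers were above both wild type livers, but Cyp3a-/- 1 and wild type 1 were nearly equal, at 9.30 and 9.29 on the log2 scale, and wild type 2 stood lower. Serpina3n, an acute phase inhibitor, had 5.80 and 6.35 in Cyp3a-/- livers, against 6.35 and 4.93 in wild type livers, with overlap. Log2 differences were 0.13 for Serpina3k and 0.12 for Serpina3n, within the wild type SD of 0.17 and 0.26.

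Serpina3m had relative signals of 153 and 108 in Cyp3a-/- livers 1 and 2, against 110 and 88.6 in wild type livers 1 and 2. Cyp3a-/- 1 was the highest liver, and Cyp3a-/- 2 lay between the wild type livers. The log2 difference was 0.38, close to the SD between Cyp3a-/- livers of 0.36, and it was 0.13 without Cyp3a-/- 1 and 0.63 without Cyp3a-/- 2.

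Neighbours of Serpina3m in the family, which were not among the chosen genes, set Cyp3a-/- 1 apart more widely. Serpina3c, which encodes a kallikrein-binding protein, had relative signals of 70.9 and 16.4 in Cyp3a-/- livers 1 and 2, against 12.6 and 9.26 in wild type livers. Serpina3h, annotated as a transcribed pseudogene, had 15.8 and 6.48 in Cyp3a-/- livers, against 5.96 and 5.32 in wild type livers. Serpina3i had 0.242 and 0.0611 in Cyp3a-/- livers, against 0.0723 and 0.0657 in wild type livers. In each of the 3 genes a single liver, Cyp3a-/- 1, was at least 2-fold above every other liver, by 4.32-fold for Serpina3c, 2.44-fold for Serpina3h and 3.34-fold for Serpina3i over the next highest. This held for 0 of the 9 chosen genes and for 3 of the 21 Serpina genes tested, against 2.34% of all features.

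Cyp3a-/- 1 was the highest liver for 1 of the 9 chosen genes, Serpina3m, and for 6 of the 21 Serpina genes, against 27.6% of all features. The Cyp3a-/- livers were at least 2-fold apart for 0 of the 9 chosen genes and 4 of the 21, against 5.45% of all features (4.58% with Cyp3a-/- 1 the higher). The wild type livers were so for 0 of the 9 and 1 of the 21, against 2.12%.

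The 3 differences between genotypes did not pass limma's threshold: 1.66 ± 0.67 for Serpina3c (adjusted p = 0.50), 0.85 ± 0.43 for Serpina3h (adjusted p = 0.585) and 0.82 ± 0.62 for Serpina3i (log2, SE, adjusted p = 0.692). Without Cyp3a-/- 1 they were 0.61, 0.20 and -0.17 on the log2 scale. Without Cyp3a-/- 2 they were 2.72, 1.49 and 1.81. All 3 then passed, among 508 features in all, with Cyp3a-/- 1 alone in its group and assumed to vary like the wild type livers. With normexp background correction the difference of the dim Serpina3i was 0.36. These genes are close copies of each other and of Serpina3m and Serpina3n, so a shared transcript could be read by several probes. Each Cyp3a-/- array was the only one of the 4 on its slide. For Cyp3a-/- 1, as for Cyp3a-/- 2, liver and slide thus cannot be told apart. Serpina3i had a further probe, not well above background on any array.

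**Figure D2:**
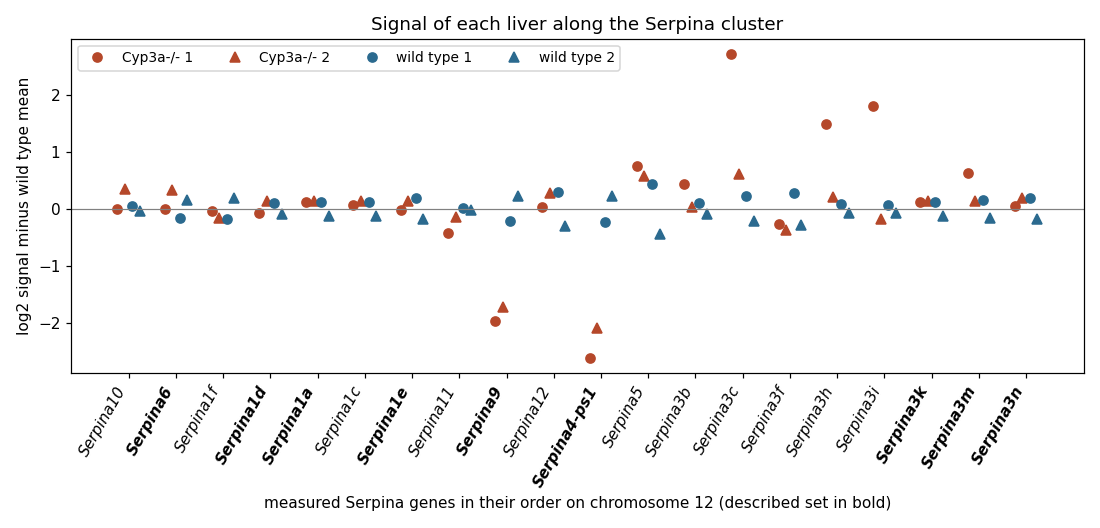
Log2 signal of each liver minus the wild type mean (vertical axis) for 20 measured Serpina genes in their order on chromosome 12 (horizontal axis), with the chosen genes in bold. Cyp3a-/- livers are red and wild type livers blue, circles replicate 1 and triangles replicate 2. Serpina9 and Serpina4-ps1 are low in both Cyp3a-/- livers, while Serpina3c, Serpina3h and Serpina3i are high in Cyp3a-/- 1.

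Serpina3n and Serpina3c are shown together because their promoters nearly match while their signals among the livers do not. Below are the 250 bases before the start of Serpina3n (chr12:104406458-104406707 on the plus strand) and Serpina3c (chr12:104153873-104154122 on the minus strand), from RefSeq, build GRCm38.p6. Capitals mark TTNCCNGAA, searched on both strands, a form that STAT factors of cytokine and growth hormone signalling bind. These sequences and this motif were picked after the values and the promoters had been seen.
Serpina3n: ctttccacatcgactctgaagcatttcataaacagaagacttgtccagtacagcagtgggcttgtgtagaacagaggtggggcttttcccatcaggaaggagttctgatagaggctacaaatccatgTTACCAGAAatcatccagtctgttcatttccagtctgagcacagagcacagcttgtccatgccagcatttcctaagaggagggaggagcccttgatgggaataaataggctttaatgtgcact
Serpina3c: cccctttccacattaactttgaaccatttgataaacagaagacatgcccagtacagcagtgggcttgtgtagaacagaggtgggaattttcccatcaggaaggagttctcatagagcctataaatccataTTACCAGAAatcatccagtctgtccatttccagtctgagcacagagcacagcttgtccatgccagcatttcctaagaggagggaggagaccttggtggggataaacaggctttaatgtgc
The windows shared 229 of 247 aligned bases (92.7%). The match begins 123 bases before the start in Serpina3n and 120 before it in Serpina3c. It was found in 4 of 8 Serpina3 genes with a window (Serpina3c, Serpina3g, Serpina3i and Serpina3n). Of all windows 4.33% held it, and of the 5 copies Serpina1a to Serpina1e 0 did. The Serpina3c, Serpina3i and Serpina3n windows are related (76.1% to 92.7% of aligned bases), so these matches are not independent. Between the Cyp3a-/- livers (replicate 1 minus 2) the log2 difference was -0.13 for Serpina3n and 2.11 for Serpina3c.

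**Figure D3:**
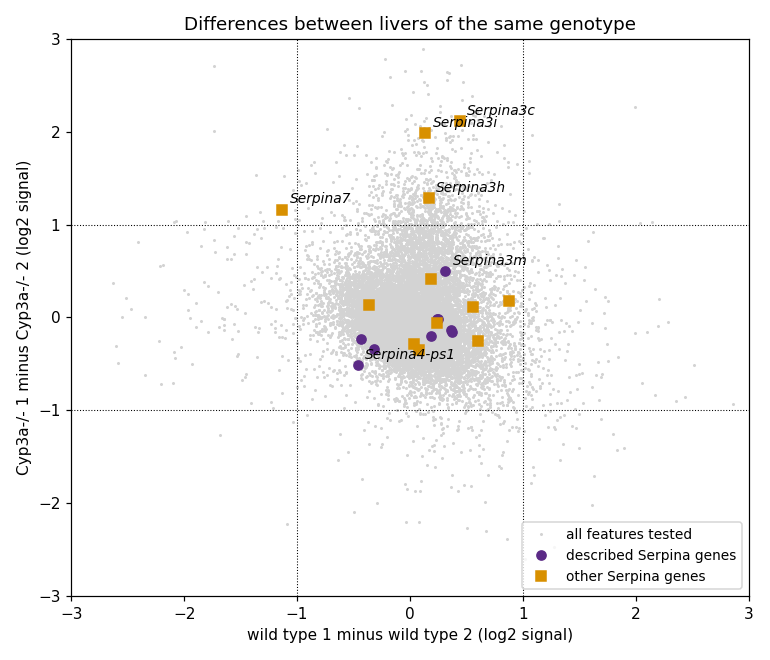
Difference in log2 signal between the Cyp3a-/- livers (vertical axis, replicate 1 minus 2) against that between the wild type livers (horizontal axis, replicate 1 minus 2), for all features (grey), the chosen Serpina genes (purple circles) and other Serpina genes (orange squares). Dotted lines mark 2-fold, and 12 features lie outside the range. Serpina3c, Serpina3i and Serpina3h exceed 2-fold between Cyp3a-/- livers and not between wild type livers, and no chosen gene exceeds it on either axis.

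Of the 16 other Serpina genes listed, 12 were tested, and 0 rose and 0 fell by limma (0 at an unadjusted p under 0.05). Over all features the shares were 0.276% and 10%. Their median log2 fold change was 0.17, beside 0.01 for all features. Serpina10, a cofactor-dependent inhibitor of coagulation factor X, stood at 0.17 ± 0.20 (SE, adjusted p = 0.798). Serpina7, the thyroxine carrier, which lies on chromosome X, had relative signals of 0.584 and 0.261 in Cyp3a-/- livers, against 0.403 and 0.882 in wild type livers, and was the 1 Serpina gene over 2-fold apart within both genotypes. Serpina5 was not well above background in wild type livers and at least 1.43-fold higher in Cyp3a-/- livers (adjusted p = 0.571, limma). Serpina3a and Serpina3j were dim on all 4 arrays, and Serpina3g and Serpina16 matched no probe.

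Genes next to the described set on chromosome 12 gave no call, where 0.276% of all features were called. Of 29 genes between its ends 10 were tested, all of them Serpina genes, and 20 more were taken from either side. By limma 0 of these 30 rose or fell, with a median of -0.14 and 1 at an unadjusted p under 0.05, against 10% of all features. That 1 was Syne3, a nuclear envelope protein gene, at -0.85 ± 0.18 (SE, adjusted p = 0.254). The 19 neighbours outside the Serpina family had a median of -0.21, with 15 below 0 and 4 above, where 51.4% of all features were above 0. The genotypes overlapped for 11 of them. They lay apart with Cyp3a-/- below for 6, against 20.2% of all features, and above for 2, against 22.5%.

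Serpins of other clades and the genes of proteins that handle serpins gave no call. Of all features 0.276% were called and 10% had an unadjusted p under 0.05. Nothing is read from 0 calls in lists of this size. Of 13 other serpins tested, 0 rose and 0 fell by limma (1 at an unadjusted p under 0.05, median 0.14). That 1 was Serpinb8, an intracellular inhibitor gene, with relative signals of 89.5 and 64.3 in Cyp3a-/- livers, against 41.8 and 35.6 in wild type livers (0.98 ± 0.23, log2, SE, adjusted p = 0.287). Next came Serpinb9, a granzyme inhibitor gene, at 0.49, and Serpinb6b at -0.39. Antithrombin (Serpinc1) stood at 0.21 ± 0.17 (SE, adjusted p = 0.709). Of 21 genes of serpin folding, export and disposal, 0 rose and 0 fell (1 at an unadjusted p under 0.05, median 0.13). That 1 was Lman1, a cargo receptor for glycoproteins leaving the endoplasmic reticulum, at 0.51 ± 0.17 (SE, adjusted p = 0.437), followed by the chaperone gene Canx at 0.40 and the vesicle coat gene Sec24d at 0.33. Of 16 target proteases and clearance receptors, 0 rose and 0 fell (1 at an unadjusted p under 0.05, median -0.03). That 1 was the receptor gene Vldlr, at -1.5 ± 0.27 (SE, adjusted p = 0.199). The coagulation factor gene F11 stood at 0.41 and the receptor gene Lrp1, which clears serpin and protease complexes, at -0.41, while neutrophil elastase (Elane) stood at 0.35 ± 0.32 (SE, adjusted p = 0.741).

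Serpina3 genes respond to inflammation and growth hormone in rodents, and genes of both programmes are given beside them. Of all features 0.276% were called by limma. Of 20 acute phase genes, 0 rose and 0 fell by limma (2 at an unadjusted p under 0.05, as for 10% of all features, median -0.16), with Orm3, an acid glycoprotein gene, at 1.55 ± 0.32 (adjusted p = 0.246) and Hamp, the hepcidin gene, at -1.15 ± 0.22 (log2, SE, adjusted p = 0.229). Fgb, the fibrinogen beta chain gene, stood at -0.91 ± 0.58 (SE, adjusted p = 0.642). Of 17 growth hormone dependent genes, 1 rose and 0 fell, with a median of 0.11. The gene that rose was Cyp2b9, a female-biased P450 gene, at 4.0 ± 0.35 (SE, adjusted p = 0.023). In wild type livers 1 of the 2 arrays read it well above background, and without wild type 1 or wild type 2 the list had 0 calls. Socs2, a feedback inhibitor of growth hormone signalling, had relative signals of 0.709 and 0.264 in Cyp3a-/- livers, against 1.24 and 2.43 in wild type livers (-2.01 ± 0.54, SE, adjusted p = 0.333). Acot3, a peroxisomal thioesterase gene, stood at -0.79.

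**Figure D4:**
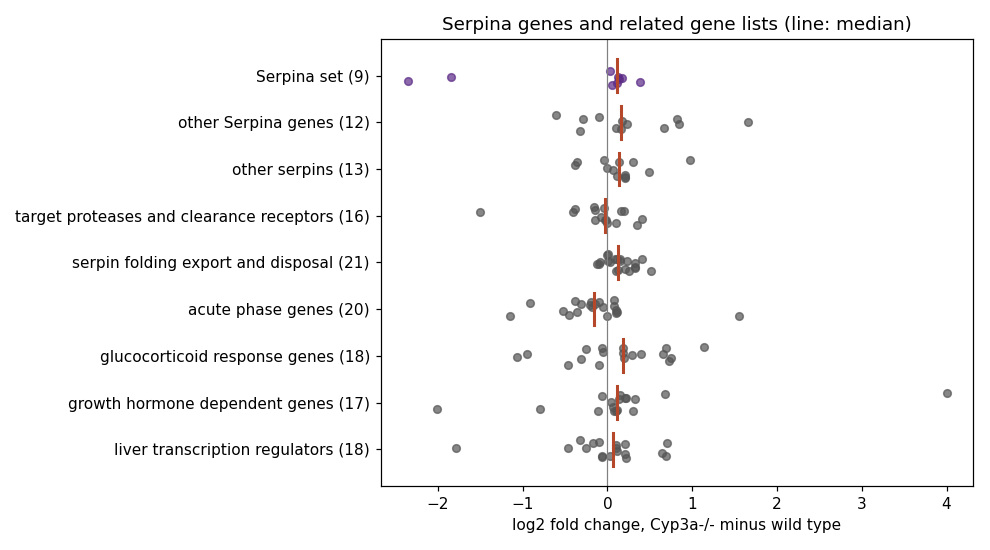
Log2 fold change (horizontal axis, Cyp3a-/- minus wild type) of each tested gene in the described Serpina set (purple) and in 8 related lists (grey), with the number tested in brackets and the median as a red line. List medians lie between -0.16 and 0.19, and the Serpina set holds 2 genes below -1.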

How the data were processed

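Total RNA of 4 mouse livers was hybridised to 1-colour Agilent arrays. The authors deposited scanner output of intensity values. The submitters' processing notes name Agilent Feature Extraction, version 11.5.1.1. Processed intensity is background-subtracted and detrended, per the file headers. Other deposited columns are median spot and background intensity and flags for background, saturation and deviating spots. The authors' deposited table of log2 values matched the scaled scanner values centred on each probe's median (correlation of 1.00 per array after rounding). Its column medians were -0.02 and 0.02 for Cyp3a-/- and 0.06 and -0.07 for wild type arrays. Scale, centring and direction are inferred from that match, and 12 probes were not in it.

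Control spots and 113 to 148 deviating spots per array were dropped, and spots averaged per probe. Log2 intensity minus the array's 75th percentile was used. Of 39429 probes, 28025 had 1 symbol through RefSeq accessions (GRCm38.p6) and 11404 had none. A probe well above background on both arrays of a genotype was kept (21508), and the brightest kept probe stood for its gene. An at-least fold divides the brighter genotype's mean by a floor, which on each array is the dimmest signal that passed the background criterion or the probe's own, if that is higher. The genotype test was limma's (version 3.58.1, R 4.3.3), with Benjamini-Hochberg adjustment over all features, 2 residual and 3.53 prior degrees of freedom, checked on simulated data. In that check it called 2 of 67 added log2 changes of 1, 30 of 67 of 2 and 52 of 66 of 4. A gene that was not called may thus still differ. Promoter windows were aligned with Biopython 1.88. The design text gives different animals, and 4 samples limit the precision.

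The members and lists were chosen with earlier results of these data known. Every chosen gene is named. In each list, genes past the threshold and the 3 with the largest change were to be named; others named were chosen after their values were seen. Some items are not reported here. The design text names 2 independent experiments but does not tie them to the replicate numbers, so the numbers were not taken to pair samples. Alternatives were normexp with an offset of 50, quantile and median scaling, the authors' table, other filters, probe rules, slide or replicate number as a block, and leaving out each liver.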

Additional observations from a re-analysis of the deposited data

How the results depend on the processing

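With 4 arrays, depth of signal over background limits dim probes most, and counts of calls moved widely. The 48 features called became 659 with median scaling, 13 without a filter on dim probes and 9 when all 4 arrays had to be well above background. With median scaling limma's prior degrees of freedom were infinite, against 3.53 before, so the same variance was used for every feature. Leaving out 1 liver gave 7 to 508 calls: 94 without Cyp3a-/- 1, 508 without Cyp3a-/- 2, 8 without wild type 1 and 7 without wild type 2. Calls among the described genes, 0 before, were 1 with normexp (Serpina4-ps1), 2 with median scaling (with Serpina9), and 0 to 2 across left-out livers (1 without Cyp3a-/- 1, 2 without Cyp3a-/- 2). Their median log2 fold change, 0.12 before, was -0.061 without wild type 2 and ranged from -0.061 to 0.24 across left-out livers. With the replicate number as a block, 58 features and 1 described gene (Serpina4-ps1) were called. With the numbers crossed, chosen after seeing the data because same-numbered deviations correlated at -0.10, 56 and 0 were called. Slide as a random block gave 33 calls. Its correlation was set from squared differences of the wild type pair, on the same slide, against the Cyp3a-/- pair, on different slides. It thus cannot tell a slide effect from a difference in spread between genotypes. The described genes were chosen with this contrast known, so nothing is read from calls among them in any setting.

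Median scaling gave 2 calls each among acute phase, glucocorticoid and growth hormone genes, and 1 each among regulators, other Serpina genes, other serpins, proteases and neighbours. The growth hormone call was 0 under normexp, without a filter, with the all-array filter and without either wild type liver (0 to 1 across left-out livers). Left-out livers gave 0 to 1 calls among proteases and acute phase genes and 0 to 3 among other Serpina genes and neighbours. The sign held in all 15 settings for Serpina3k, Serpina3m, Serpina4-ps1 and Serpina9, and the cause of these shifts was not tested.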

Other observations

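Fgb also set Cyp3a-/- 1 apart, with relative signals of 140 and 505 in Cyp3a-/- livers 1 and 2, against 495 and 504 in wild type livers. The genes of the other fibrinogen chains did not share this. Fgg had 530 and 519 in Cyp3a-/- livers, against 551 and 502 in wild type livers, and Fga had 32.8 and 37.4 in Cyp3a-/- livers, against 42.0 and 45.3 in wild type livers.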
